A study of Homo sapiens with 32 samples.

Results

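The APOBEC3 family consists of 7 human genes, *APOBEC3A*, *APOBEC3B*, *APOBEC3C*, *APOBEC3D*, *APOBEC3F*, *APOBEC3G* and *APOBEC3H*, all of which were found by gene name among the 60107 genes of the deposited tables. Expression was measured by QuantSeq 3′ mRNA sequencing in THP-1, a human monocytic leukemia line, with 32 libraries in 8 groups of 4. The groups compared cells with wild-type ATP-citrate lyase (ACLY), without ACLY, or with ACLY that lacks catalysis or a phosphorylation site, each with or without bacterial lipopolysaccharide (LPS). KO cells carry an ACLY knockout. For WT, HA and SA cells, a lentivirus returned ACLY to such knockout cells as wild-type ACLY, the catalytically inactive H760A mutant or the phosphorylation-deficient S455A mutant, driven by the EF promoter of the vector and selected with puromycin. All 4 lines thus share the knockout background, and the paper does not state whether KO cells were transduced. Each line was left untreated or received 100 ng/ml LPS for 3 h according to the labels. The 4 libraries of a group come from 1 line, so p-values measure the spread between repeats of that line, and other differences between lines cannot be told apart from the ACLY genotype.

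APOBEC3 proteins are cytidine deaminases that convert cytosine to uracil in single-stranded DNA. They restrict retroviruses and endogenous retroelements, and HIV-1 counters several of them with its Vif protein, which recruits a host ubiquitin ligase to degrade them. The genes lie side by side on chromosome 22, are thought to have arisen by duplication, and carry either 1 or a pair of zinc-binding deaminase domains. Myeloid cells are a known site of expression, and type I interferon is a known inducer, of *APOBEC3A* in monocytes above all.

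Levels are normalized counts, meaning reads divided by a size factor computed jointly over all libraries, so that lines share 1 scale. The libraries held 6504099 to 14750815 reads on genes. All 10 monocytic markers examined passed the count minimum, and T cell, erythroid and epithelial markers summed to at most 4.69 in any library. The summed monocytic markers reached 25580 to 42670 in KO and 23800 to 29800 in HA libraries, against 12110 to 15290 in WT and 13250 to 14400 in SA libraries. This sum is weighted to the markers with most counts, *LYZ* (mean 11560) and *TYROBP* (6043), against 88.0 for *CD14* and 29.0 for *MPO*. It does not show that each marker differed between lines. The 3 fibroblast markers summed to 23.5 to 34.7 in WT and 0 to 9.89 in KO libraries. *NKG7* (mean 207) was also counted, although the other NK cell markers stayed below the minimum. The *ACLY* transcript itself was 102 ± 11.4 (SD, n = 4) in WT and 88.5 ± 17.4 in KO cells, and the 3′ reads do not show whether the protein is made. By western blot, the paper reports that ACLY protein was restored in WT, HA and SA cells. It also reports reduced ACLY enzyme activity in KO and HA cells and intact activity in SA cells. One library, SA LPS replicate 1, stood apart, with a correlation of 0.799 to the rest of its group across genes, where the next lowest was 0.908.

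In genome build GRCh38 (GENCODE 44) the 7 genes occupy 151.3 kb of chromosome 22 on the plus strand. *APOBEC3A* (chr22:38952741-38963184) comes first, followed by *APOBEC3B* (chr22:38982347-38992804), *APOBEC3C* (chr22:39014257-39020352) and *APOBEC3D* (chr22:39021113-39033277). *APOBEC3F* (chr22:39040604-39055972), *APOBEC3G* (chr22:39077067-39087743) and *APOBEC3H* (chr22:39097224-39104067) complete the cluster. *CBX6* and *CBX7*, which encode chromobox proteins of Polycomb complexes, lie on either side. Because the genes are related, the last 500 bases of their transcripts were searched for 75-base windows found in other counted genes. Such windows made up 0% for *APOBEC3C* and *APOBEC3H*, 2.82% for *APOBEC3G*, 6.57% for *APOBEC3F* and 7.26% for *APOBEC3A*. They made up 18.5% for *APOBEC3B*, all of them shared with *APOBEC3A*, and 18.1% for *APOBEC3D*, all shared with *APOBEC3F*, so the low counts of these 2 genes are the least certain.

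Transcripts of the family were very unequal. *APOBEC3C*, which encodes a single-domain enzyme, accounted for 88.2% of the 50541 family reads, *APOBEC3G*, the Vif-sensitive restriction factor of HIV-1, for 8.36%, and *APOBEC3F*, a related double-domain restriction factor, for 2.43%. These 3 genes passed the minimum of a mean of 10 deposited counts and were tested. *APOBEC3A*, a single-domain enzyme found in monocytes, had 266 reads in all, *APOBEC3B*, known for mutations in tumors, had 99, *APOBEC3H* had 89 and *APOBEC3D* had 37. These 4 fell below the minimum. *APOBEC3D* had no read in 17 of the 32 libraries, *APOBEC3H* in 12, *APOBEC3A* in 11 and *APOBEC3B* in 8. Since the assay counts 3′ ends, levels of different genes are given per transcript end and are not divided by length.

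**Figure D1:**
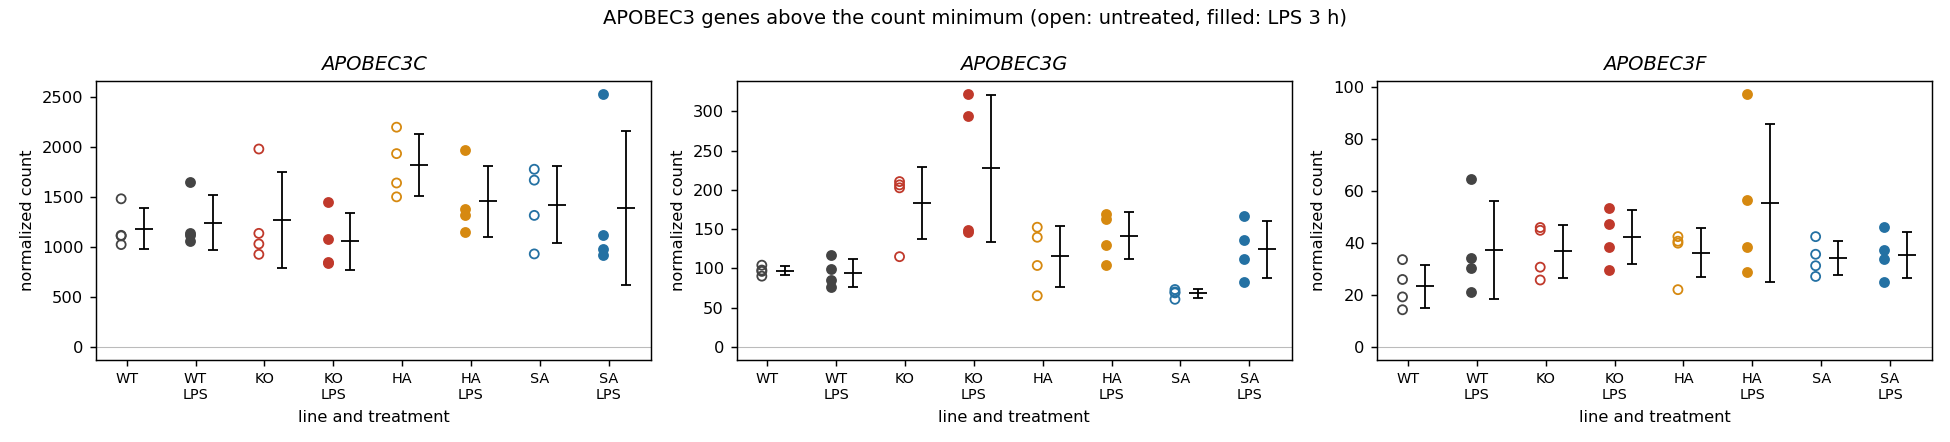
Normalized counts of *APOBEC3C*, *APOBEC3G* and *APOBEC3F* (vertical axes, linear) in each library of the 8 groups, with open points untreated, filled points LPS, and the black mark the mean ± SD of 4 libraries. With LPS, *APOBEC3G* ran from 146 to 323 in KO libraries and from 76.1 to 117 in WT libraries, while most *APOBEC3C* groups overlapped.

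*APOBEC3G* had the only differences that passed the test among the 3 genes. In untreated WT cells the libraries held 90.2, 98.0, 104 and 96.3 normalized counts (97.1 ± 5.75, SD, n = 4). Untreated KO cells held 206, 211, 203 and 115 (184 ± 45.9). Every KO library lay above every WT library, although KO replicate 4 was close to the WT values. After LPS, WT libraries held 117, 98.8, 85.6 and 76.1 (94.3 ± 17.6), and KO libraries held 323, 294, 146 and 149 (228 ± 93.6). The groups again did not overlap, and the KO libraries fell into a high and a low pair.

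After LPS, *APOBEC3G* was higher in KO than in WT cells by 1.19 ± 0.28 on the log2 scale (SE), 2.27-fold, with a limma adjusted p of 6.31e-03. In this comparison 3.47% of all 12406 genes tested were called at an adjusted p below 0.01, and 13.9% had libraries that did not overlap. The samples of KO and WT cells with the same replicate number deviated together, and with that number blocked in a fit of these groups the limma adjusted p was 4.30e-04. The call did not hold without KO LPS replicate 1 (limma adjusted p = 4.73e-02) or KO LPS replicate 2 (3.81e-02), nor without WT LPS replicate 2 (1.44e-02), 3 (2.29e-02) or 4 (3.13e-02), and the difference was then 0.99 to 1.21. It also did not hold on the deposited scale (limma adjusted p = 1.30e-02), in a fit of these groups without the block (4.68e-02) or with no count minimum (1.21e-02). In untreated cells the KO to WT difference of 0.87 ± 0.28 did not pass, with a limma adjusted p of 6.90e-02, and 1.15e-02 with the block. There 2.9% of all genes were called and 12% did not overlap.

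The remaining lines placed *APOBEC3G* between or below these values. Untreated HA cells, which hold the inactive enzyme, had 153, 140, 104 and 65.2 (115 ± 39.2) and overlapped both WT and KO cells. HA cells with LPS had 169, 105, 163 and 130 (142 ± 30.3). Against WT the HA difference was 0.18 ± 0.28 untreated and 0.58 ± 0.28 with LPS, with limma adjusted p-values of 0.710 and 0.289, where 2.52% and 2.02% of genes were called. KO exceeded HA by 0.70 ± 0.28 untreated and 0.61 ± 0.28 with LPS, and neither passed (limma adjusted p = 0.396 and 0.433), where 0.226% and 0.00806% of all genes were called. The 95% intervals of these differences ran from 0.16 to 1.24 and from 0.07 to 1.15.

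Untreated SA cells had the lowest mean *APOBEC3G* level of the 8 groups, with 70.1, 60.7, 73.2 and 68.8 (68.2 ± 5.31). All lay below every untreated WT library, as did 1.85% of genes, but the difference of -0.51 ± 0.28 did not pass (limma adjusted p = 0.998), and 0% of genes, 0 of the 12406 genes were called in this comparison, with 445 at an unadjusted p below 0.05. Against untreated SA cells, KO cells were higher by 1.38 ± 0.28, 2.6-fold, with a limma adjusted p of 1.81e-03, where 2.86% of genes were called and 10.9% did not overlap. This call did not hold in a fit of these 2 groups alone (limma adjusted p = 1.24e-02), on the deposited scale (1.02e-02) or without KO replicate 1 (1.01e-02). With LPS the SA libraries had 82.2, 167, 111 and 136 (124 ± 36.0), overlapping KO, and the KO to SA difference was 0.82 ± 0.28 (limma adjusted p = 7.75e-02, with 2.93% of genes called). HA exceeded SA cells by 0.68 ± 0.28 untreated and 0.21 ± 0.28 with LPS (limma adjusted p = 0.196 and 0.741).

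None of the 3 genes was called by limma between LPS and untreated cells in any line, and 1 of these 12 tests had an unadjusted p below 0.05. That test was *APOBEC3G* in SA cells, where all 4 LPS libraries exceeded all untreated ones, by 0.81 ± 0.28, with a limma adjusted p of 0.268. In SA cells 0.492% of all genes were called and 4.18% did not overlap between treatments, and the shares called were 0.25% in WT, 0.58% in KO and 0.403% in HA cells. In WT cells the LPS difference of *APOBEC3G* was -0.06 ± 0.28, in KO cells 0.25 ± 0.28 and in HA cells 0.34 ± 0.28. The difference of the SA and WT responses was 0.87 ± 0.39, with a limma adjusted p of 0.997. Counting these interactions, 57 tests of the 3 genes over 19 comparisons gave 2 calls, and 12 had an unadjusted p below 0.05. The comparisons share groups, so these tests are not independent. Per comparison, limma called 0% to 3.47% of all 12406 genes, and 142 to 3045 genes had an unadjusted p below 0.05.

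**Figure D2:**
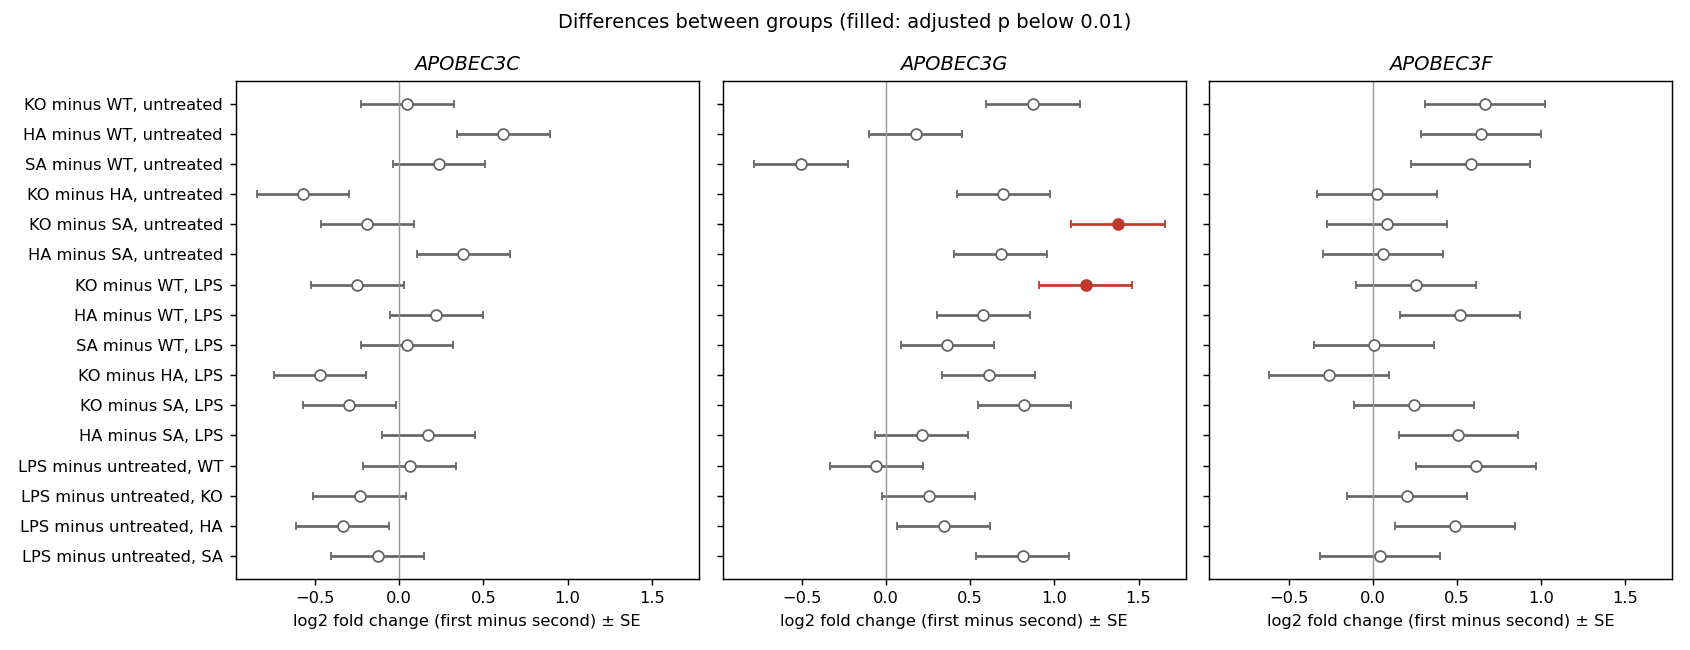
Log2 fold changes (horizontal axis, first group minus second, ± SE from the fit) of *APOBEC3C*, *APOBEC3G* and *APOBEC3F* in the 12 comparisons of lines and the 4 of LPS with untreated cells. Filled red points had an adjusted p below 0.01, which were *APOBEC3G* in KO minus WT with LPS (1.19) and in KO minus SA untreated (1.38).

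*APOBEC3C* had the highest level of the family in every group and no call in any comparison. Untreated WT libraries had 1116, 1024, 1482 and 1111 (1183 ± 203), and KO libraries had 1136, 926, 1980 and 1030 (1268 ± 482). These groups overlapped, with a difference of 0.05 ± 0.28. Untreated HA libraries had 2198, 1934, 1501 and 1640 (1818 ± 311), all above every untreated WT library, by 0.62 ± 0.28 (limma adjusted p = 0.164). In that comparison 17.6% of genes did not overlap and 2.52% were called. With LPS the means were 1243 in WT, 1056 in KO, 1456 in HA and 1387 in SA cells, and all line comparisons overlapped. The SA value rests on replicate 1, the library that stood apart, at 2533 against 921 to 1121 in the other three.

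The spread of *APOBEC3C* within groups moved with a difference between libraries that runs through many genes. The main direction of deviations from the group means, computed without the family, held 52.1% of the variance within groups. Over the 32 libraries *APOBEC3C* had r = 0.949 with it, *APOBEC3F* 0.519 and *APOBEC3G* -0.141. The libraries farthest along it were SA LPS replicate 1 (143.75) and KO replicate 3 (78). In every WT and KO group the highest score was that of replicate 3 (49.1 to 78). In every HA and SA group it was that of replicate 1 (35.07 to 143.75). The part of this direction in the differences of *APOBEC3C* between lines was not tested.

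*APOBEC3F* was lowest in untreated WT cells, with 14.3, 26.0, 33.6 and 19.3 (23.3 ± 8.37), and highest in HA cells with LPS, with 97.4, 38.3, 28.7 and 56.6 (55.3 ± 30.4). The high mean of HA cells with LPS is mainly 1 library. Untreated KO, HA and SA cells had means of 36.8, 36.3 and 34.1, and differed from WT by 0.66, 0.64 and 0.58, each ± 0.36. None of the 3 passed, with limma adjusted p-values of 0.424, 0.262 and 0.998, and neighbouring groups in the order of levels overlapped.

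*APOBEC3A* was scarce outside the KO line. Untreated KO libraries had 21.8, 20.1, 47.3 and 20.2 normalized counts (27.4 ± 13.3), and KO libraries with LPS had 15.4, 17.8, 37.1 and 22.7 (23.3 ± 9.69). WT libraries had a single library above 0, at 3.36, when untreated, and 2.99, 5.20, 0 and 0 with LPS. HA libraries ranged from 0 to 13.2 untreated and from 0 to 5.15 with LPS, and SA libraries from 0 to 10.6 and from 0 to 9.63. All 8 KO libraries, at 15.4 to 47.3, thus lay above all 24 others, at 0 to 13.2, with 180 reads in KO against 86 in the other three lines together. This grouping was chosen after the values were seen. Of the 27904 genes with a read, 0.0394% had all KO libraries above all others, and of the genes tested 0.0806%.

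The ratio of *APOBEC3A* reads, corrected for size factors, was 34.3 for untreated KO over WT (95% exact interval 11.4 to 169, 93 against 3 reads) and 11.4 with LPS (5.51 to 27.1, 87 against 8 reads). For KO over HA it was 5.81 (3.52 to 10.1) untreated and 5.64 (3.37 to 9.95) with LPS. For KO over SA it was 7.70 (4.56 to 13.8) and 4.89 (3.01 to 8.30). These intervals cover counting error only, not the spread between libraries, and reads are not independent molecules. Single libraries set several of these ratios. Untreated WT replicate 3 held all 3 WT reads and SA replicate 1 all 17 SA reads. Without HA replicate 1, which held 13 of 19 reads, KO over HA was 14.1 (6.25 to 39.5). With LPS, KO over WT was 32.1 (8.63 to 269) without WT LPS replicate 2, and KO over SA was 11.1 (4.91 to 31.2) without SA LPS replicate 2. This was examined after the data were seen. For HA over SA the ratios were 1.32 (0.651 to 2.71) and 0.868 (0.436 to 1.71), with 1 inside both intervals.

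With all genes that had a read in the limma fit, *APOBEC3A* was higher in untreated KO than WT cells by 4.20 ± 0.91 on the log2(count + 1) scale, with an adjusted p of 7.10e-03, where 1.15% of genes were called. The call did not hold with the replicate number blocked in a fit of both groups alone (adjusted p = 6.53e-02), on the deposited scale (1.24e-02), or without WT replicate 1, 2 or 4 or any single KO library (1.71e-02 to 3.36e-02). With LPS the difference of 3.37 ± 0.91 did not pass (limma adjusted p = 4.07e-02, with 1.37% of genes called), nor did KO against SA untreated, 3.84 ± 0.91 (1.70e-02, with 1.01% called). KO against HA, at 2.89 ± 0.91 untreated and 2.57 ± 0.91 with LPS, did not pass either (limma adjusted p = 0.370 and 0.392), nor did KO against SA with LPS, at 2.76 ± 0.91 (0.132). Without SA replicate 1, the single untreated SA library with reads, the untreated KO to SA difference was 4.73 with a limma adjusted p of 2.87e-03. LPS changed *APOBEC3A* in KO cells by -0.21 ± 0.91 (limma adjusted p = 1.00), a read ratio of 0.881 (0.650 to 1.19).

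**Figure D3:**
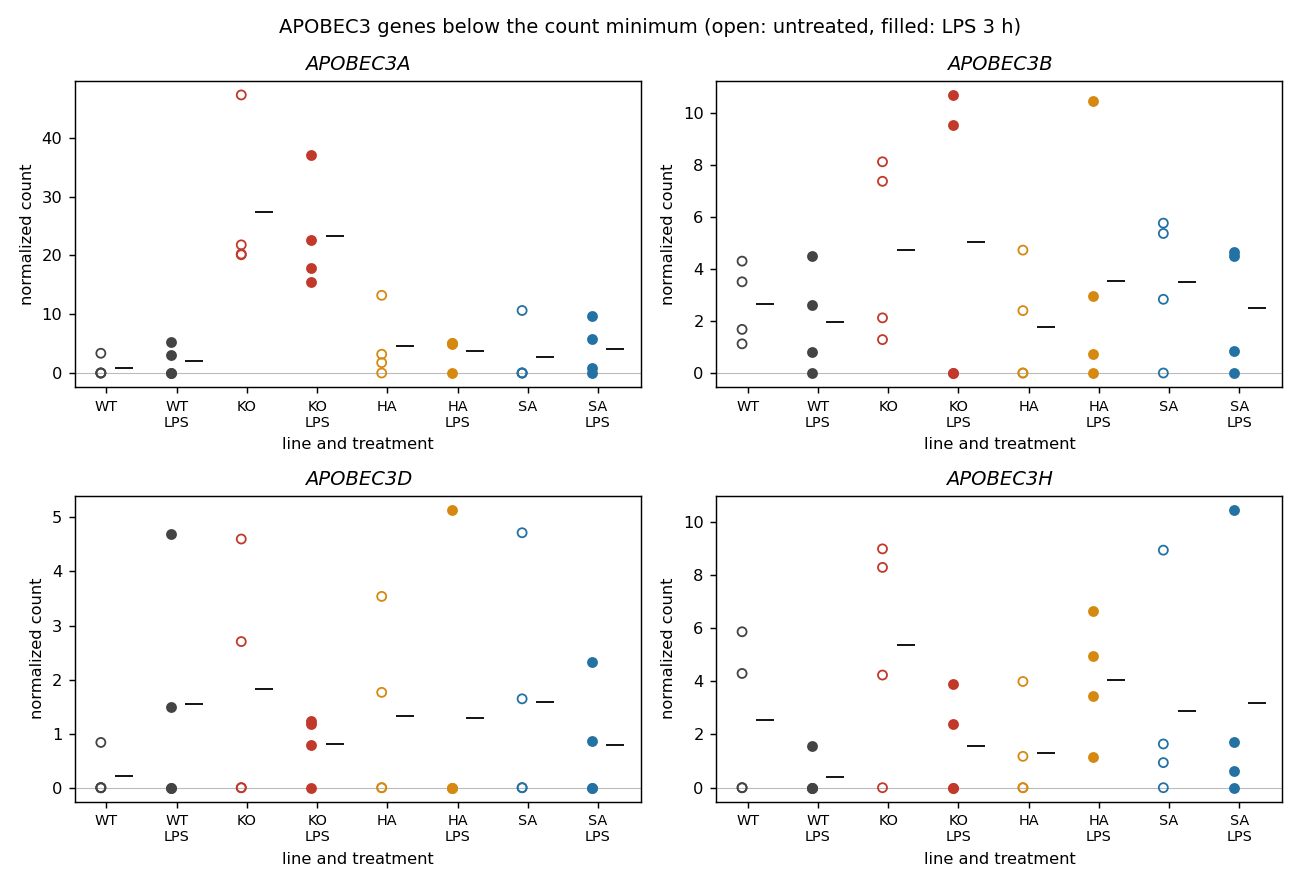
Normalized counts of the 4 genes below the count minimum (vertical axes, linear) in each library, with open points untreated, filled points LPS and the black mark the mean of 4 libraries. For *APOBEC3A* the 8 KO libraries sit at 15.4 to 47.3 and the 24 others at 0 to 13.2, while *APOBEC3B*, *APOBEC3D* and *APOBEC3H* stay at or below 10.7 in every library.

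*APOBEC3B*, *APOBEC3D* and *APOBEC3H* were too scarce to compare. *APOBEC3B* ranged from 0 to 10.7, *APOBEC3D* from 0 to 5.14 and *APOBEC3H* from 0 to 10.5, with overlap between the groups of every comparison. The floor of 3 reads came to 4.29 normalized counts in WT replicate 1. *APOBEC3H*, the most polymorphic member in human populations, had 2 reads in WT cells with LPS and 19 in HA cells with LPS, a difference of 1.85 ± 0.86 that did not pass in the fit of all genes with a read (limma adjusted p = 0.424).

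Along the cluster, differences between lines were unequal from gene to gene. In KO against WT cells with LPS, *APOBEC3A* stood at 3.37, *APOBEC3C* at -0.25, *APOBEC3F* at 0.25 and *APOBEC3G* at 1.19. Of 8 genes tested among the 10 listed on either side, 0 were called higher and 1 lower, where 1.1% of all genes untreated and 1.33% with LPS were called lower in KO against WT cells. That gene, *CBX6*, fell by 1.12 ± 0.20 untreated (limma adjusted p = 4.17e-04) and by 1.25 ± 0.20 with LPS (8.05e-05) in KO against WT cells. It fell by 0.93 ± 0.20 untreated (limma adjusted p = 4.34e-03) and by 0.99 ± 0.20 with LPS (2.51e-03) in HA against WT cells. There 1.1% of all genes untreated and 0.854% with LPS were called lower. The median of the 8 genes in KO against WT was -0.02 untreated and 0.03 with LPS, close to that of all genes tested, -0.03 and -0.01.

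**Figure D4:**
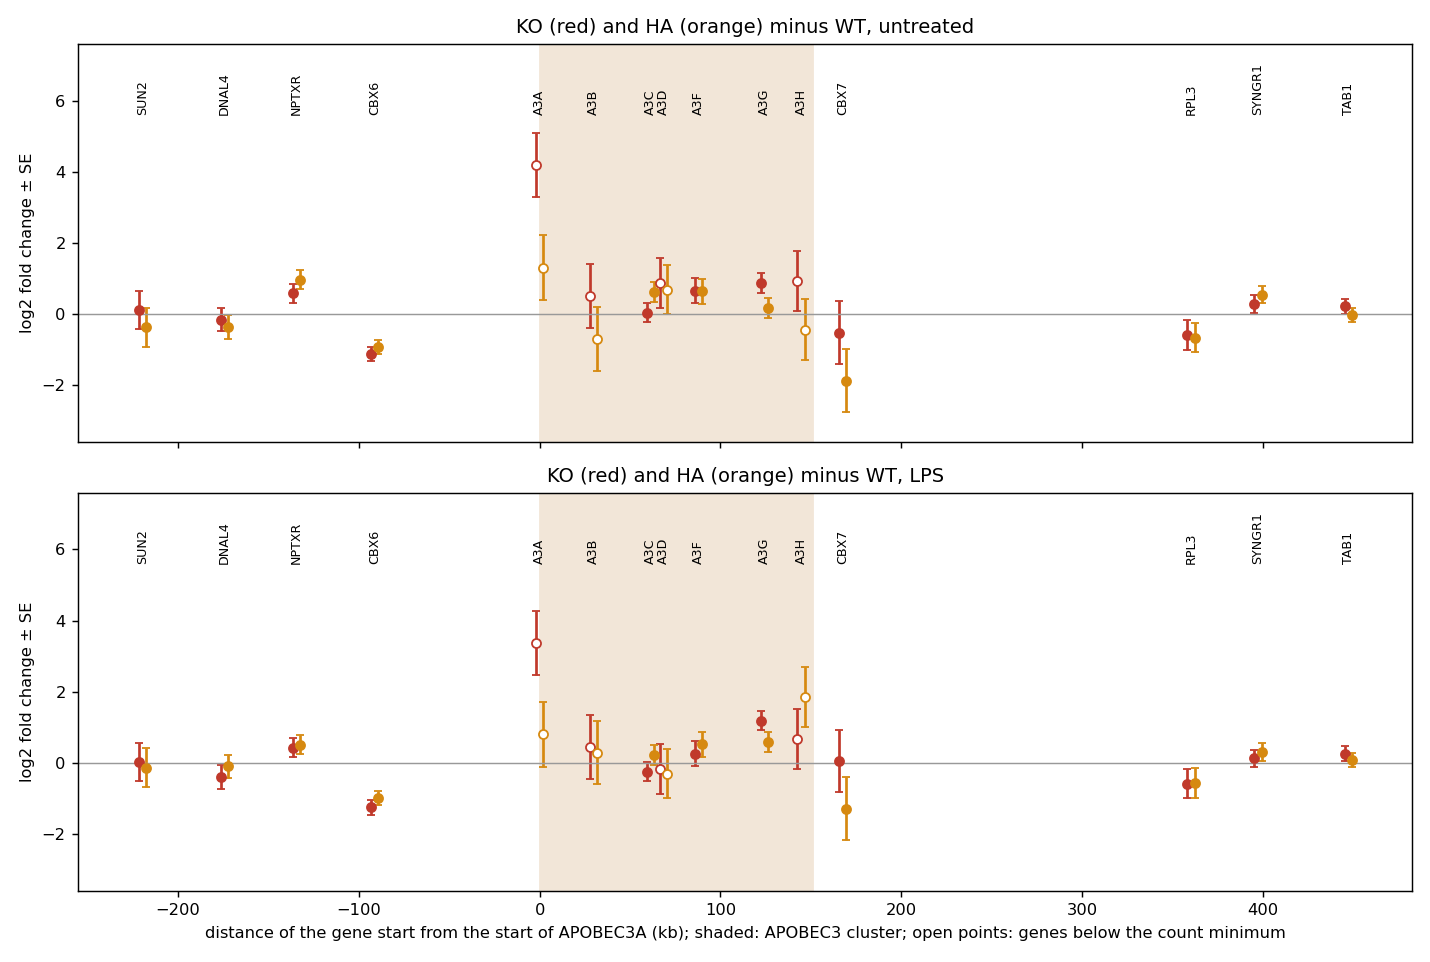
Log2 fold changes ± SE (vertical axis) of KO (red) and HA (orange) against WT for the genes along the cluster, plotted by the distance in kb of the gene start from the start of *APOBEC3A*, untreated above and with LPS below. Open points are genes below the count minimum, from the fit of all genes with a read. *APOBEC3A* has the highest point in both panels for KO (4.20 and 3.37) and *CBX6* lies below 0 in both lines.

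Genes that work with or around the family were examined as lists. All 12 well-known interferon-stimulated genes were called higher in KO than in WT cells, untreated (median 2.55) and with LPS (2.05). Of all genes 1.8% and 2.14% were called higher there. Among the 12 with LPS were *IFI44L* at 2.81 ± 0.20, *IFI6* at 2.25 ± 0.19, *IFIT2* at 3.23 ± 0.31 and *OAS1* at 1.73 ± 0.18. In HA cells 8 of 12 were called higher untreated (median 1.37) and 6 of 12 with LPS (1.03), where 1.42% and 1.16% of all genes were called higher. *APOBEC3G* at 1.19 and 0.58 with LPS lay below these list medians in both lines. In SA cells limma called 0 of 12 untreated and 0 of 12 with LPS, with 2 and 8 at an unadjusted p below 0.05. Of all 12406 genes tested, limma called 0 in SA against WT cells in either treatment, and 445 and 646 had an unadjusted p below 0.05. The paper's own test, DESeq2 at an adjusted p below 0.01, differs. With LPS it found *CXCL11*, *IFI44*, *GBP1*, *EPSTI1* and *IFIT2* higher in SA than in WT cells, and no gene higher untreated. Of these, *IFIT2* is named above as a gene of this list. The SA medians were 0.35 and 0.59.

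Other restriction factors of retroviruses rose in part. In KO against WT cells, 8 of 17 were called higher and 0 lower untreated (median 1.28), and 9 of 17 higher and 0 lower with LPS (1.07), where 1.8% and 2.14% of all genes were called higher. *HERC5*, an ISG15 ligase, rose by 2.24 ± 0.18 with LPS, *MX2*, which blocks nuclear import of HIV-1, by 1.93 ± 0.22, *EIF2AK2*, the RNA-activated kinase PKR, by 1.28 ± 0.17 and *TRIM22* by 2.54 ± 0.33. In HA cells 6 of 17 were called higher untreated (median 0.34) and 4 of 17 with LPS (0.51), against 1.42% and 1.16% of all genes. In SA cells limma called 0 of 17 in either treatment, with 2 and 7 at an unadjusted p below 0.05. Of all 12406 genes it also called 0, with 445 untreated and 646 with LPS at an unadjusted p below 0.05.

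Genes of interferon signaling to the ISRE, the promoter element that many interferon-stimulated genes share, were called higher for 5 of 12 in untreated KO against WT cells (median 0.74) and 2 of 12 with LPS (0.69), against 1.8% and 2.14% of all genes. The latter included *IRF1*, an interferon regulatory factor, at 1.75 ± 0.17. Among NF-kB subunits and their kinases limma called 0 of 8 in KO against WT, with 0 untreated and 2 with LPS at an unadjusted p below 0.05 (medians 0.21 and 0.33). Of all 12406 genes 2.9% and 3.47% were called in either direction, and 1770 and 2138 had an unadjusted p below 0.05. With 8 genes, 0 calls cannot be told apart from these shares.

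Genes that act downstream of deamination or in the Vif pathway were examined in KO against WT cells. There limma called 2.9% of all genes untreated and 3.47% with LPS, with 1.1% and 1.33% called lower. Lists of 8 and 12 genes are too short for few calls to differ from such shares. Of 12 genes for removal of uracil from DNA and nucleotide pools, 1 was called lower in untreated KO against WT cells, *POLB*, the repair polymerase beta, by -0.79 ± 0.18 (limma adjusted p = 5.25e-03), and limma called 0 of 12 with LPS, where *POLB* alone had an unadjusted p below 0.05, at -0.72 ± 0.18 (limma adjusted p = 1.06e-02). Among the 8 host proteins that Vif uses, limma called 0 in KO against WT, and 0 had an unadjusted p below 0.05 in either treatment. Of 6 relatives and cofactors of the wider APOBEC group, only *RBM47*, a cofactor of APOBEC1, passed the minimum, at 1.13 ± 0.50 in untreated KO against WT cells (limma adjusted p = 0.269). *APOBEC1*, *APOBEC2*, *APOBEC4* and *A1CF* had no reads.

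**Figure D5:**
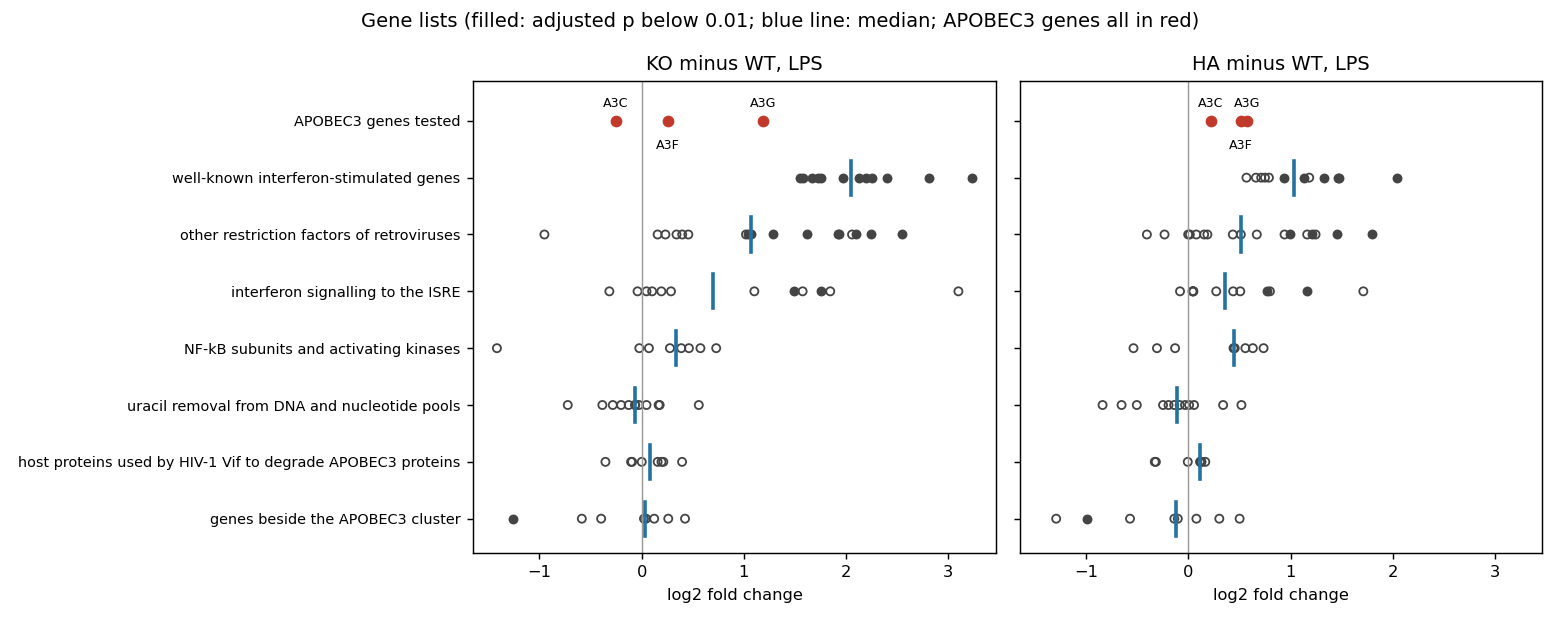
Log2 fold changes (horizontal axis) with LPS of the 3 APOBEC3 genes tested (red, named) and of the tested genes of 7 lists, for KO (left) and HA (right) against WT, with filled black points called at an adjusted p below 0.01 and blue lines the list medians. *APOBEC3G* lies at 1.19 and 0.58, below the medians of the well-known interferon-stimulated genes at 2.05 and 1.03.

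Across the 32 libraries, which share lines and depth, the genes tested whose log2 levels were most like those of *APOBEC3G* were *EPSTI1* (Pearson r = 0.872), *B2M* (0.850) and *EIF2AK2* (0.850). For *APOBEC3C* they were *CMTM7* (0.967), *POLR2L* (0.965) and *CD81* (0.959), and for *APOBEC3F* *PARP10* (0.714), *PPP1R12A* (0.704) and *IL1RN* (0.697). Among themselves the 3 members had r = 0.39 for *APOBEC3C* and *APOBEC3F*, -0.28 for *APOBEC3C* and *APOBEC3G*, and 0.36 for *APOBEC3F* and *APOBEC3G*. For deviations from the group means, r was 0.50, -0.20 and 0.29 in the same order. The monocytic marker sum was higher in KO and HA than in WT and SA cells. Against WT, the interferon list medians untreated and with LPS were 2.55 and 2.05 in KO cells. They were 1.37 and 1.03 in HA, and 0.35 and 0.59 in SA cells. The *APOBEC3G* differences from WT were 0.87 and 1.19 in KO, 0.18 and 0.58 in HA, and -0.51 and 0.36 in SA cells. The part of the marker sum in these differences was not tested. Mean *APOBEC3A*, untreated and with LPS, was 27.4 and 23.3 in KO, 4.54 and 3.81 in HA, and 2.66 and 4.07 in SA cells. The part of the marker sum in *APOBEC3A* levels was not tested either.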

How the data were processed

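RNA of THP-1 cells was sequenced in 32 libraries of 8 groups of 4, assigned by the labels. Per the methods, reads were trimmed (Bbduk), aligned to GRCh38 (STAR), counted per gene (HTSeq-count) and normalized (DESeq2) by the authors, at versions and an annotation release not given in the sources used here. What the authors deposited are normalized counts, scaled separately for each line. Every value was a whole multiple of 1 read (100.000% within 0.05 reads), so reads were recovered and divided by joint median-of-ratios factors over 12406 genes, whose deposited mean was at least 10. Relative to this scale, the deposited scale shifts KO by -0.10, HA by 0.15 and SA by 0.26 (log2) against WT. Of 60199 rows, 92 spike-ins (1 read) were left out.

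limma 3.58.1 (R 4.3.3) was fitted to log2(count + 1) with 8 group means and a trend, with Benjamini-Hochberg adjustment over all genes tested, calls at an adjusted p below 0.01, and 19 comparisons. Scripts were tested on simulated data. Family members below the minimum were taken from a fit of all 27904 genes with a read. Members and lists were chosen with earlier results of these data known. Named list genes are at most 4 per list, those with the smallest p among called genes. Same-numbered libraries deviated together in KO and WT cells, untreated (r = 0.334 to 0.682) and with LPS (0.179 to 0.723), and between treatments in WT (0.263 to 0.68) and KO (0.124 to 0.675). The numbers come from the labels, which do not say what they mark. The methods' treatment paragraph gives another LPS dose than the labels. Alternatives covered scale, pseudocount, filter, samples in the fit, replicate block and leaving out single libraries. Some listed genes are not reported here.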

Additional observations from a re-analysis of the deposited data

Results flagged for a closer look

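In 12 of 56 combinations of a gene and a group, 1 library lay far from the other three by Dixon's test, which chance gives in about 1 in 20 groups of continuous values. That rate does not hold for low counts, and in 5 of the 12 the other three libraries were all at 0, where any read gives a flag. In *APOBEC3G* it was KO replicate 4, at 115 against 203 to 211, the KO library nearest to WT cells. In *APOBEC3C* it was SA LPS replicate 1, at 2533 against 921 to 1121, the library that stood apart across all genes, and WT LPS replicate 3, at 1651 against 1064 to 1141. In *APOBEC3F* it was HA replicate 4, at 22.0 against 39.9 to 42.5. *APOBEC3A* had KO replicate 3 at 47.3 against 20.1 to 21.8, WT replicate 3 at 3.36 and SA replicate 1 at 10.6, both against 0, and HA LPS replicate 1 at 0 against 4.95 to 5.15. For genes with few reads, *APOBEC3D* had WT replicate 2 at 0.837 and HA LPS replicate 4 at 5.14, both against 0, and *APOBEC3H* had WT LPS replicate 4 at 1.58 against 0 and SA LPS replicate 3 at 10.5 against 0 to 1.71.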

How the results depend on the processing

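For members called, 334 results under alternatives were within 1.5 times of the reported count and 13 were not, and no fold change reversed. In untreated KO against WT the count of 0 became 1 with no filter on low counts (*APOBEC3A*). In untreated KO against SA the count of 1 became 0 on the deposited scale, with only the groups compared, and with the replicate block in those groups (*APOBEC3G* adjusted p = 9.40e-02, limma), and ranged from 0 to 1 over single libraries left out. In KO against WT with LPS it became 0 on the deposited scale (adjusted p = 1.30e-02), with only the groups compared (4.68e-02) and with no filter (1.21e-02), and ranged from 0 to 1 over single libraries left out. The causes were not tested. The replicate block changed no other call of a tested member, and the rule that all same-numbered pairs correlate above 0.1 was met in the KO and WT cells only, while HA against SA with LPS had 0.021 to 0.525. One level moved by more than its SD, *APOBEC3G* in untreated SA cells, at 77.4 on the deposited scale. TMM factors and pseudocounts of 0.5 and 5 changed no call. Count tests on the recovered reads had been planned and were not run. Depth limits *APOBEC3A*, *APOBEC3B*, *APOBEC3D* and *APOBEC3H*, of which 37 to 266 reads were counted in all.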
